A study of Mus musculus with 7 samples.

Results

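Sorted cell populations of the embryonic day 9.5 (E9.5) mouse embryo were compared, namely the Osr1-GFP-positive cells outside a nephron progenitor gate ("other GFP-positive") and the GFP-negative cells. They make up 2 of the 7 arrays of the series and were chosen by their labels alone. Both populations came from the caudal part of C57BL6J embryos that carry an Osr1-GFP knock-in, in which green fluorescent protein (GFP) reports the Osr1 gene. The gate removed from the first population held GFP-positive cells that stained for the integrin Itga8 and not for the receptor Pdgfra, and every GFP-positive cell outside it remained. Other arrays named here for reference held the E9.5 gated cells, GFP-positive and GFP-negative cells of whole E8.5 embryos, and gated and other GFP-positive cells of the E11.5 metanephric mesenchyme. There was 1 array per population, so no difference has a replicate check and no p-value is given.

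Osr1 is a zinc-finger transcription factor of the early intermediate mesoderm, the source of the kidney and gonad, and of the lateral plate mesoderm, which lies beside it. The lateral plate splits into a somatic layer, which gives the body wall and the limb buds, and a splanchnic layer, which gives the heart and the mesenchyme of the gut. The caudal embryo at this stage also holds neural tube, neural crest, somites, tail bud, gut, vessels and circulating primitive red cells.

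Levels are log2 signal minus the 75th percentile of the array, so a level of 0 marks a probe as bright as that percentile, and levels of different probes cannot be set against each other. A gene counted as measured when the scanner software called it well above background in either population. Where the other array was not, that side was set to a bound and the fold is written as "at least". Of 27113 genes on the array, 23725 were measured. On the other GFP-positive array 84.1% of spots were well above background, and 73.8% on the GFP-negative array. The former lay on slide 1 and the latter on slide 2, and this difference of slide and that of population cannot be told apart. The gated E9.5 array shared slide 2 with the GFP-negative array, and both E8.5 arrays lay on slide 1. Repeat spots of 399 probes gave a standard deviation of 0.15 for a log2 difference, which covers spot noise alone.

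The gene behind the reporter was checked first. Osr1 stood at -0.08 in the other GFP-positive cells and was not well above background in the GFP-negative cells, where its signal was -4.38, which made it at least 19.7-fold higher. Itga8 stood at 0.20 against -1.31 and Pdgfra at 3.44 against 1.99. In the gated cells these stood at 1.03 for Osr1, 2.15 for Itga8 and -0.52 for Pdgfra, so the order of the E9.5 arrays in each follows the sort.

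In all, 189 genes were at least 4-fold higher in the other GFP-positive cells, which is 0.797% of those measured, and 300 genes, or 1.26%, were at least 4-fold lower. Of these, 83 and 75 are bounds. At 2-fold, the threshold used for gene lists, 2033 genes (8.57%) were higher and 1227 (5.17%) lower. Over all measured genes the median log2 difference was 0.13. It was 0.51 among the 2973 genes with a mean level below -4 and 0.01 among those between -2 and 0, so the dimmest genes leaned to the other GFP-positive side. Of the genes past 4-fold, 38.7% were on the higher side. That share was 25.6% after quantile normalization, with 201 higher and 583 lower, and 25.4% in the unscaled value table, with 132 and 387. Among the gene lists, those of limb and splanchnic mesoderm had the highest medians, 1.75 and 1.58. Those of red cell and neural tube genes had the lowest, -2.94 and -2.23. The limb list held 11 and the splanchnic list 8 of the 189 higher genes. Of the 300 lower genes the red cell list held 11 and the neural tube list 15. The lists were chosen with earlier results of these data known.

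**Figure D1:**
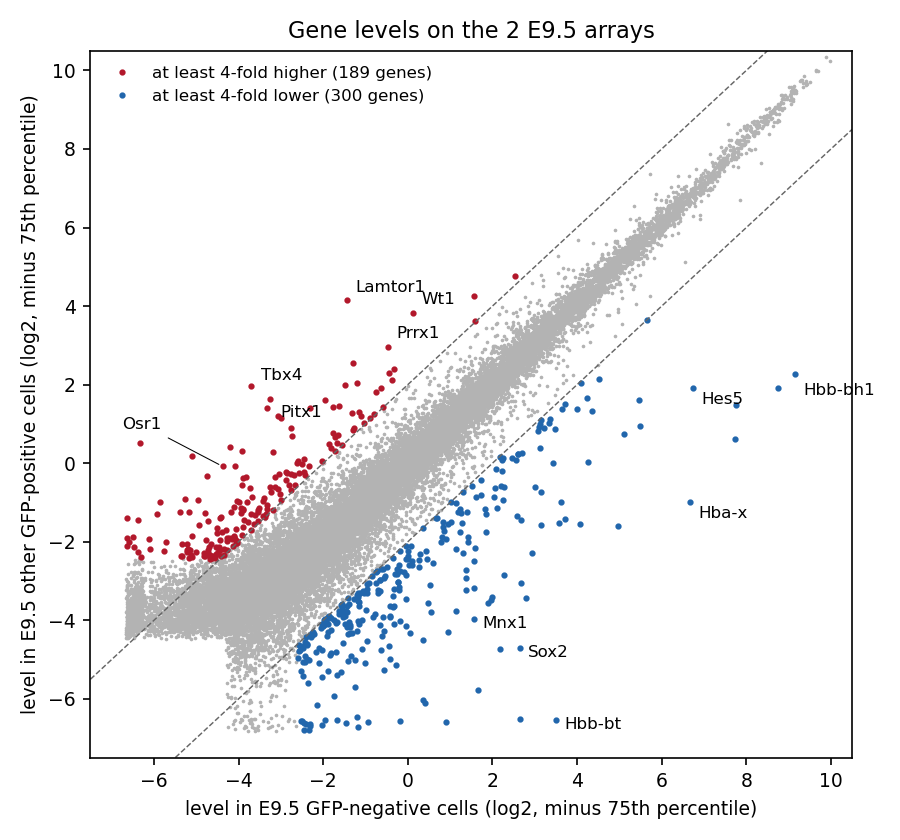
Level of each measured gene in E9.5 GFP-negative cells (x axis) against E9.5 other GFP-positive cells (y axis), both log2 minus the 75th percentile of the array, 1 array each. Red points are the 189 genes at least 4-fold higher and blue points the 300 at least 4-fold lower after bounds were set, dashed lines mark 4-fold, and values not well above background are drawn at their own signal.

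Hindlimb and limb bud genes stood higher in the other GFP-positive cells. Of 24 listed genes, all measured on both arrays, 17 were at least 2-fold higher and 0 lower, with a median difference of 1.75. Tbx4, a T-box factor that marks the hindlimb field, had the largest difference of any named gene on this side, with a level of 1.97 in the other GFP-positive cells and -3.71 in the GFP-negative cells, 51.1-fold. Pitx1, the homeobox factor that acts upstream of Tbx4 and gives the hindlimb its identity, stood at 1.64 against -3.25, 29.7-fold. On the array's mm9 coordinates, Tbx4 is read by a probe on chromosome 11 from 85729510 to 85729569, and Pitx1 by one on chromosome 13 from 55926417 to 55926476.

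Fgf10, the mesenchymal growth factor that starts limb outgrowth, stood at 1.44 against -1.76, 9.17-fold. Prrx1, a homeobox factor of limb mesenchyme, was 10.8-fold higher, at 2.97 against -0.47, and both of its probes gave a log2 difference above 3.41. The LIM homeobox gene Lhx2 was 14.4-fold higher, the forelimb factor Tbx5 11.1-fold and Tbx15 8.58-fold. Smaller differences were seen for Twist2 (2.57), Prrx2 (2.33), Lhx9 (2.08), Alx4 (1.65) and Twist1 (1.48) on the log2 scale. The other 2 probes of Lhx9 gave larger differences, 3.84 and, before bounds were set, 4.08. Members within 2-fold included Msx1 (0.68), Gli3 (0.52), Irx3 (0.36), the dorsal limb factor Lmx1b (0.12), Epha4 (-0.42) and Hoxd12 (-0.45).

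The gated cells differed from the other GFP-positive cells in these genes. Tbx4 stood at -1.66 in the gate, Pitx1 at -1.52, Prrx1 at -0.13 and Tbx15 at -3.58, and Tbx5 was not well above background there. Tbx4 and Pitx1 were still higher in the gate than in the GFP-negative cells, where they stood at -3.71 and -3.25. In their own comparison with the GFP-negative array, which lies on the same slide, the gated cells had 5 of 24 limb genes higher and 10 lower, with a median of 0.02. Of all 189 genes at least 4-fold higher in the other GFP-positive cells, 156 were measured in that comparison. Of these, 84 were at least 2-fold higher in the gated cells, 7 lower and 65 within 2-fold. That comparison shares its GFP-negative array with the one described here, so the values are set side by side only.

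Splanchnic mesoderm genes formed the next group, with 13 of 19 measured members higher, 1 lower and a median of 1.58. Gata6, a zinc-finger factor of heart and gut mesoderm, stood at 1.42 against -2.30, 13.2-fold. Hand2, a basic helix-loop-helix factor of the lateral plate, heart and limb, stood at 0.68 against -2.73, 10.6-fold. The T-box repressors Tbx2 and Tbx3 were at least 8.15-fold and 6.66-fold higher. Foxf2 (2.55) and Hand1 (2.30) followed on the log2 scale, as did Isl1, a LIM homeobox factor of the second heart field and hindlimb field (1.95). Foxf1, a forkhead factor of the splanchnic layer, was at the edge of the count with 1.01. Gata4 was the member on the other side, with levels of -2.54 and -1.52, 2.03-fold lower. The heart factor Nkx2-5 (-0.01) and the gut mesenchyme factor Nkx3-2 (0.24) lay within 2-fold. The probe for Gata5 is bright and flat, between 7.95 and 8.32 on all 7 arrays, and carries little information on either population.

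Genes of Bmp signalling, which patterns the lateral plate, numbered 8 higher and 0 lower among 17 measured, with a median of 0.97. The ligand Bmp4 stood at 4.26 against 1.57, 6.49-fold, and Bmp7 was 1.32 higher on the log2 scale. The secreted inhibitor Grem1 was 2.04 higher and the intracellular inhibitor Smad7 1.52. Among target genes, Id1 was 1.30 and Msx2 1.21 higher, while Id3 differed by 0.18. The inhibitors Nog (0.00) and Chrd (-0.10) and the ligand Bmp2 (-0.07) did not differ beyond the spot noise. Tbx3, Bmp4, Grem1, Msx1 and Msx2 also stand in the lists above, so these counts are not independent. The gated cells, set against the same GFP-negative array, had 6 of 17 Bmp genes higher and 3 lower, with a median of 0.75.

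Intermediate mesoderm genes showed no common side. Of 20 measured members, 4 were higher and 0 lower, with a median of 0.15, or -0.14 over the 16 well above background on both arrays. Apart from Osr1, the higher ones were Wt1, a zinc-finger factor of the coelomic lining and kidney, at 3.83 against 0.13 (13-fold), Gata3, which is needed for the nephric duct (6.82-fold), and Emx2 (at least 3.61-fold). The kidney lineage factors Pax2, Six2 and Sall1 lay within 2-fold. Pax2 stood at -0.97 against -0.75, Six2 at -2.63 against -2.75 and Sall1 at 1.59 against 2.54, and Pax8 was not well above background on either array. Lhx1 differed by 0.29 by its brighter probe and, before bounds were set, by 2.73 by the other. The probe for Eya1 is bright and flat, between 8.65 and 9.01 on every array. In the gated cells Pax2 stood at 2.32, Six2 at 1.16 and Pax8 at 0.72. Wt1 stood at 5.73 there, above its level in the other GFP-positive cells. Markers of the coelomic lining, the epithelium that covers the body cavity, were higher in 5 of 11 measured cases and lower in 0. Besides Wt1 these were Tbx18 (1.85), Nr2f2 (1.11), Upk3b (1.02) and Msln (at least 1.01), with a list median of 0.93. The last 2 lie close to the threshold and the count was 2 to 6 under other settings.

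**Figure D2:**
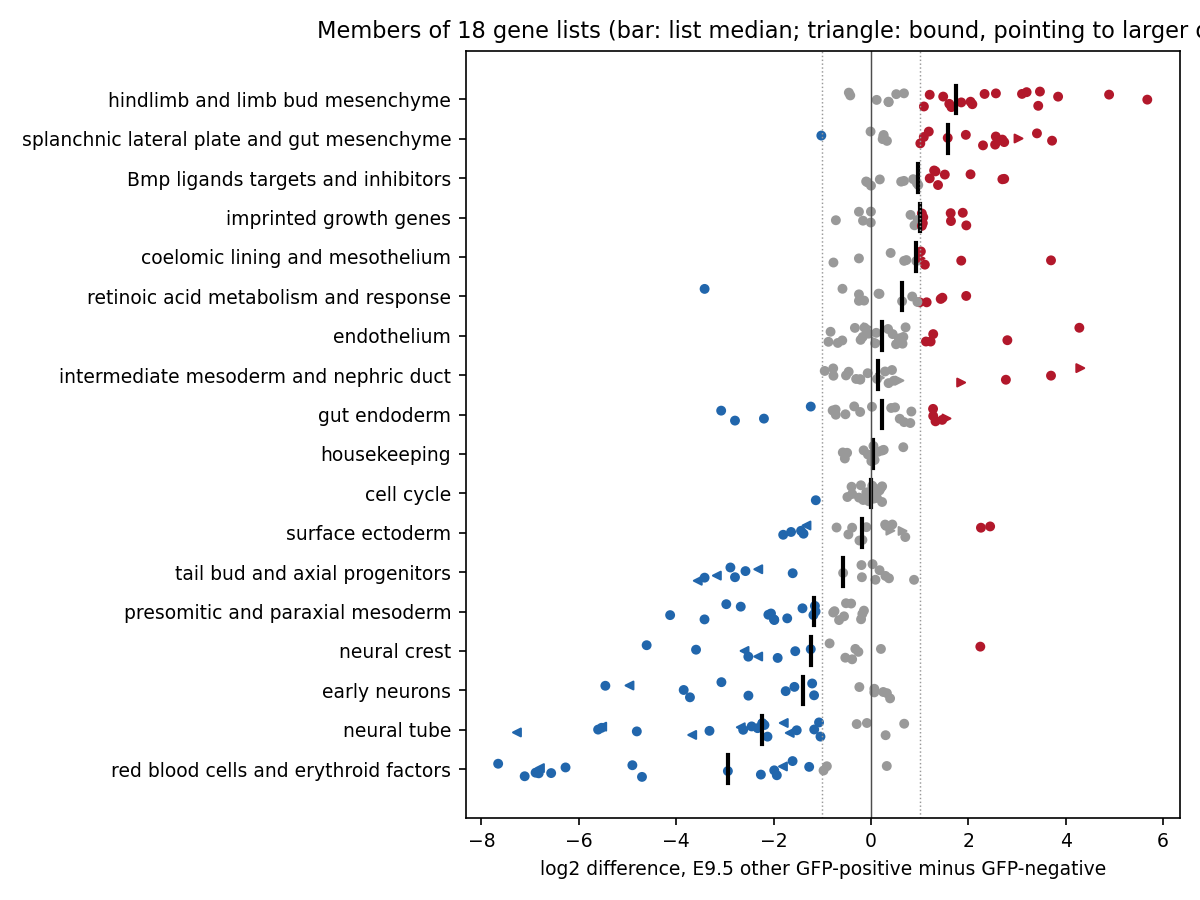
Log2 difference of each measured member of 18 gene lists, E9.5 other GFP-positive minus GFP-negative, 1 array each. Points past 2-fold (dotted lines) are red where higher and blue where lower, triangles are bounds, and black bars are list medians, which run from 1.75 for limb genes to -2.94 for red cell genes.

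Red cell genes had the largest differences on the lower side. Of 19 measured red cell genes, 16 were at least 2-fold lower in the other GFP-positive cells and 0 higher, with a median of -2.94. Embryonic globins are made in primitive red cells, and the promoters of 4 globin genes that stood lower together are shown with the motifs known from globin promoters: CCACCC, bound by Krüppel-like factors, CCAAT, bound by NF-Y, and GATAA, bound by GATA factors. Each line gives the 150 bases before the start of the gene, 5′ to 3′ on the strand of the gene, with matches to these motifs on either strand in capitals. The sequences are RefSeq's for GRCm38.p6, a different build from the mm9 of the array. The table held 5 of the 6 globin genes named here, all but Hbb-bh1.
Hbb-y: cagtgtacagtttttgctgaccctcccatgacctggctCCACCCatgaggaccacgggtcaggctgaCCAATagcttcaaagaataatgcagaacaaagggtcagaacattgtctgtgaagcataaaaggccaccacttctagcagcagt
Hbb-bt: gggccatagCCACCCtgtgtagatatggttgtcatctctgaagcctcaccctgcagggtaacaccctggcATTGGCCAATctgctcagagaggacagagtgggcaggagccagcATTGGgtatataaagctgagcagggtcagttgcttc
Hba-x: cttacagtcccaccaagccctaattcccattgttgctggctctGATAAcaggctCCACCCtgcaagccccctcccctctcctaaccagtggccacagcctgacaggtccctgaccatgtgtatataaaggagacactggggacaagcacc
Hba-a1: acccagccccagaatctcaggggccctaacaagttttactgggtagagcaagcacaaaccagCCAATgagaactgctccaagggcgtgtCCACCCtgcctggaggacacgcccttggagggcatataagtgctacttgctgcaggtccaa
They lie on chromosome 7, minus strand, at chr7:103853208-103853357 for Hbb-y and chr7:103813924-103814073 for Hbb-bt. Those on chromosome 11, plus strand, are chr11:32276450-32276599 for Hba-x and chr11:32283522-32283671 for Hba-a1. CCACCC was found in all 4, CCAAT in 3 and GATAA in Hba-x alone. Of all 32851 promoter windows of this length in the table, 19.7% hold CCACCC, 24.5% CCAAT and 13.3% GATAA on either strand. A match describes the letters in this window only.

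The embryonic alpha-type globin Hba-x stood at -0.98 in the other GFP-positive cells and 6.68 in the GFP-negative cells, 202-fold lower. The embryonic beta-type globins Hbb-y and Hbb-bh1 were 113-fold and 118-fold lower, at 1.92 against 8.74 and 2.27 against 9.15. The adult-type globins Hba-a1 and Hba-a2 were 138-fold and 77.3-fold lower. These 2 are near-identical copies whose probes may read both. Hbb-bt, which likewise has a near-identical neighbour, was not well above background in the other GFP-positive cells and at least 278-fold lower. Slc4a1, the anion exchanger of the red cell membrane, was 94.9-fold lower, Ahsp, the chaperone of alpha globin, at least 111-fold, and Alas2, the first enzyme of erythroid haem synthesis, 26.0-fold. Of the erythroid regulators, Gata1 stood at -3.77 against 1.13, 29.9-fold lower, and Klf1 at -3.30 against -1.04. The hematopoietic factors Tal1 and Lmo2 differed less, by -1.99 and -0.91 on the log2 scale. Car2 and Acp5, enzymes also made by red cell precursors, were 42.0-fold and 74.3-fold lower.

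Globin signal was not absent from the other GFP-positive array. Summed on the linear scale over 19 red cell genes, leaving out Hemgn, whose probe is bright and flat on every array, the signal was 17 times the 75th percentile there, against 1583 in the GFP-negative and 8.79 in the gated cells. In the gated cells Hbb-y and Hba-x were not well above background. Of 14 measured genes of macrophages and other white blood cells, 3 were lower and 0 higher. These were Pf4, a platelet chemokine, at least 32.6-fold, Tyrobp 4.30-fold and Aif1 2.12-fold. Cx3cr1, a chemokine receptor of macrophages, is not in this count because neither array was well above background for the probe that stood for it, while its other probe stood at 0.42 in the GFP-negative cells and was not well above background in the other GFP-positive cells. In bulk sorted samples, fewer cells of a type and less RNA per cell cannot be told apart.

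Neural tube genes stood lower almost throughout, in 21 of 25 measured cases, with 0 higher and a median of -2.23. Sox2, a factor of neural stem cells, stood at 2.65 in the GFP-negative cells and was not well above background in the other GFP-positive cells, at least 154-fold lower. Its relative Sox3 stood at -1.54 against 4.07, 48.6-fold lower, and the Notch target Hes5 at 1.92 against 6.73, 28.0-fold. The motor neuron factor Mnx1 was 46.3-fold lower and the proneural factor Neurog2 at least 45.9-fold. Prdm8 and Prdm13, zinc-finger factors of the developing nervous system, were at least 156-fold and at least 37.9-fold lower. On the log2 scale, the dorsal factor Atoh1 differed by -2.67 as a bound, the ventral factors Nkx6-1 and Nkx2-2 by -2.45 and -2.13, and the motor neuron factors Lhx3 and Olig2 by -3.32 and -1.52. Msi1 (-0.29) lay within 2-fold. The probes that stood for Sox1 (0.30) and Sox21 (-0.08) did so as well, but their second probes, well above background on both arrays, differed by -3.35 and -3.70.

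Of 16 early neuron genes 10 were lower and 0 higher, with a median of -1.39. The probes that stood for Elavl4 and Nhlh1 are bright and flat on every array. Their second probes differed by -4.79, before bounds were set, and by -0.53. Neurod1 differed by 0.07, and by -2.87 at its second probe. Nhlh2, a helix-loop-helix factor of new neurons, was 43.9-fold lower, the neuronal tubulin Tubb3 14.4-fold and Stmn2 13.2-fold. Neural crest genes numbered 8 lower and 1 higher of 15, with a median of -1.24. Tfap2b was 24.4-fold lower, the endothelin receptor Ednrb 12.1-fold, and the crest factors Sox10 and Foxd3 differed by -2.52 and, as a bound, -2.32 on the log2 scale. Snai2, a zinc-finger factor that crest shares with mesenchyme, was the member that was higher, at 4.77 against 2.53.

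**Figure D3:**
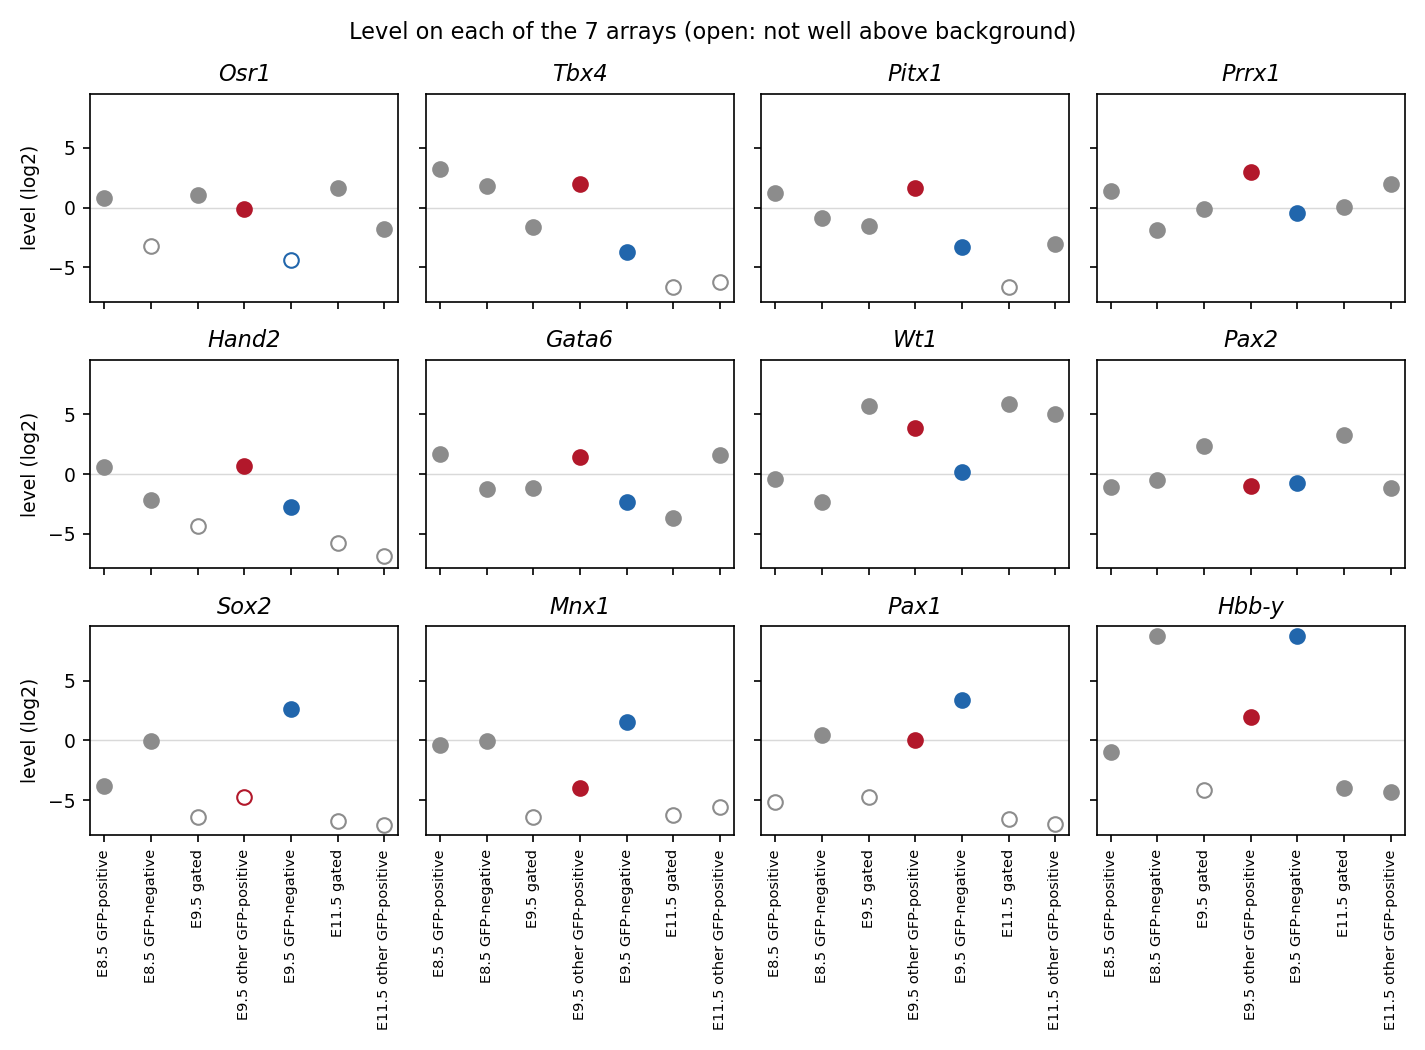
Levels of 12 genes on each of the 7 arrays of the series (y axis, log2 minus the 75th percentile of the array; 1 point per array), with E9.5 other GFP-positive cells in red and E9.5 GFP-negative cells in blue. Open points were not well above background, and Tbx4 stands at 1.97 in red against -3.71 in blue while Hbb-y stands at 1.92 against 8.74.

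Genes of the paraxial mesoderm, which forms the somites, were lower in 13 of 22 measured cases and higher in 0, with a median of -1.17. Pax1, a factor of the ventral somite that gives vertebrae, stood at 0.01 against 3.42, and its relative Pax9 differed by -2.05 on the log2 scale. Lfng, a glycosyltransferase that modifies Notch receptors in the segmentation clock, stood at -1.45 against 2.67, 17.4-fold lower. The Notch ligands Dll1 (-2.67) and Dll3 (-1.99) and the clock gene Hes7 (-1.99) were lower too. Second probes of Pax9 and Dll3 differed by -0.86 and -0.88, within 2-fold. Somite factors within 2-fold included Meox1, at 4.37 against 5.03, Foxc2 (-0.78) and Uncx (-0.20). Of 18 Notch pathway genes 8 were lower and 1 higher, but 5 of the 8 are Dll1, Dll3, Hes7, Lfng and Nrarp from the somite list and Hes5 is a neural tube member. The other 2 were Heyl (at least 16.8-fold) and Notch1 (-2.64 on the log2 scale), whose second probe differed by only -0.30.

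Of 17 tail bud genes 8 were lower and 0 higher, with a median of -0.57. The mesoderm factor T was not well above background in the other GFP-positive cells and at least 11.8-fold lower, and Wnt3a, a signal of the tail bud, was at least 8.97-fold lower. Cyp26a1, which degrades retinoic acid in the tail, stood at -3.45 against -0.03, and Cdx2 at -2.84 against -0.04. Other tail bud genes did not follow. Fgf8 stood at 0.60 against 0.79, Wnt5a at 3.26 against 3.08 and Evx1 at 1.35 against 1.26.

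Gated cells had the same tissues on the lower side of their own comparison with the GFP-negative array, within slide 2. There 20 of 25 neural tube, 14 of 22 paraxial mesoderm, 10 of 17 tail bud and 15 of 19 red cell genes were lower and 0 higher in each list. Both comparisons subtract the same GFP-negative array, so these counts are not a separate check and are set side by side only.

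Endothelial genes differed little as a group, with 5 of 26 higher, 0 lower and a median of 0.23. Erg, an ETS factor of endothelium, stood at 1.20 against -3.08, 19.4-fold, but its second probe was not well above background on either array. Etv2, an ETS factor that starts the endothelial programme, was 6.97-fold higher by its brighter probe and 0.27 on the log2 scale by the other. Sox17, also among the higher ones, differed by 1.28 on the log2 scale and by -0.10 at its second probe. Members within 2-fold included Cdh5 at 0.54 against -0.03, Kdr at 1.38 against 1.27, Pecam1 at -1.84 against -1.70 and Cldn5 at -2.25 against -1.37. The gated cells, set against the same GFP-negative array, had 15 of 26 endothelial genes higher and 1 lower, with a median of 1.21. Gut endoderm genes split, with 5 of 22 higher and 4 lower. The keratins Krt8 and Krt18 were 1.33 and 1.46 higher on the log2 scale, and Foxa2, which floor plate and gut share, stood at 0.91 against 3.11. Foxa1 (-0.66 against -0.31) and Shh (-0.82 against -0.29) lay within 2-fold and were not well above background in the gated cells. Surface ectoderm genes had 2 of 19 higher and 5 lower. The higher ones were Tfap2c, at 1.30 against -1.15, and Dlx6 (2.26). Among the lower ones were Krt5 (-1.44) and Esrp1 (-1.39), whose second probes differed by -0.18 and 0.13. The probe that stood for Trp63 is bright and flat on every array, between 5.88 and 6.32. Its other probes well above background on both arrays differed by -2.38 and -0.89. Tfap2a differed by -0.39, and by -2.99 at its second probe.

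Imprinted growth genes, which are expressed from 1 parental allele, numbered 8 higher and 0 lower of 16, with a median of 1.0. Dlk1 stood at 7.36 against 5.72, Peg3 at 3.80 against 2.16, H19 at 8.63 against 7.56 and Igf2 at 4.75 against 3.70. Zim1 and Phlda2 were 3.88-fold and 3.69-fold higher. Second probes differed by 0.10 for Zim1 and 0.39 for H19 on the log2 scale. Cdkn1c, at 0.85 on both arrays, and Grb10 (-0.16) did not differ beyond 2-fold. Of the 8, 4 lie between 1.04 and 1.07, and with scaling by quantiles or none at all the count was 5 or 4. The gated cells, set against the same GFP-negative array, had 6 of 16 of these genes higher and 0 lower, with a median of 0.84. The higher side was thus not particular to the other GFP-positive cells.

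Among signalling genes, the Wnt enhancers Rspo1 and Rspo2 were 9.47-fold and at least 10.9-fold higher, and Fgf9 was 4.69-fold higher, whereas Fgf15, a growth factor of the neural tube, was at least 18.3-fold lower. Over whole lists, 3 of 24 Wnt genes were higher and 4 lower, and 2 of 19 Fgf genes were higher and 3 lower. Of 15 Hedgehog genes 2 were higher and 2 lower, so these pathways had no side. Hhip, counted as higher, differed by 2.48 by its brighter probe and by -4.24 by the other, both before bounds were set. The Hedgehog receptor and target Ptch1 differed by -1.12 on the log2 scale while Gli1 stood at 1.45 against 1.51. Of 15 genes of retinoic acid metabolism and response 5 were higher and 1 lower, with a median of 0.64. The synthesis enzymes Rdh10 (1.47) and Aldh1a3 (1.96) were higher, Aldh1a2, the main embryonic synthesis enzyme, stood at 3.01 against 3.25, and the degrading enzymes divided between Cyp26b1 (1.43 higher) and Cyp26a1. Among matrix genes 6 of 24 were higher and 2 lower, with Col14a1 at least 11.3-fold higher by its brighter probe and Col1a1 at 2.43 against 1.42. Cell cycle genes had 1 of 21 lower, Ccnd2 (-1.13), and 0 of 14 housekeeping genes were past 2-fold.

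Hox genes, which set position along the body and limb axes, divided by cluster and by number. The 5′ part of the Hoxd cluster stood higher: Hoxd13 at 2.61 against 0.76, Hoxd9 at 5.28 against 3.54, Hoxd11 at 2.08 against 0.94 and Hoxd8 at 2.34 against 1.31, while Hoxd10 (0.26) and Hoxd12 (-0.45) lay within 2-fold. Hoxa13 stood at 1.67 against 0.04. Second probes differed by 0.59 for Hoxd11 and 3.12 for Hoxa13. All 4 measured Hoxa genes numbered 8 or more were above 0, with a median of 0.71, save that Hoxa9 stood at -0.11 in the unscaled value table. In the Hoxb cluster all 8 measured genes were below 0, with Hoxb9 at 3.92 against 4.96. Groups 1 to 5 had 2 of 14 lower, Hoxd4 (-1.19) and Hoxa4 (-1.08), and 0 higher, with a median of -0.58. Groups 11 to 13 had 3 of 8 higher and 2 lower, with a median of 0.66. The lower ones were Hoxc12 (-1.56) and, as a bound, Hoxc13 (-1.13). Low numbers and the Hoxb and Hoxc clusters thus leaned to the GFP-negative side by less than 2-fold in most cases. The median of groups 9 and 10 was 0.10, and -0.11 in the unscaled value table.

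**Figure D4:**
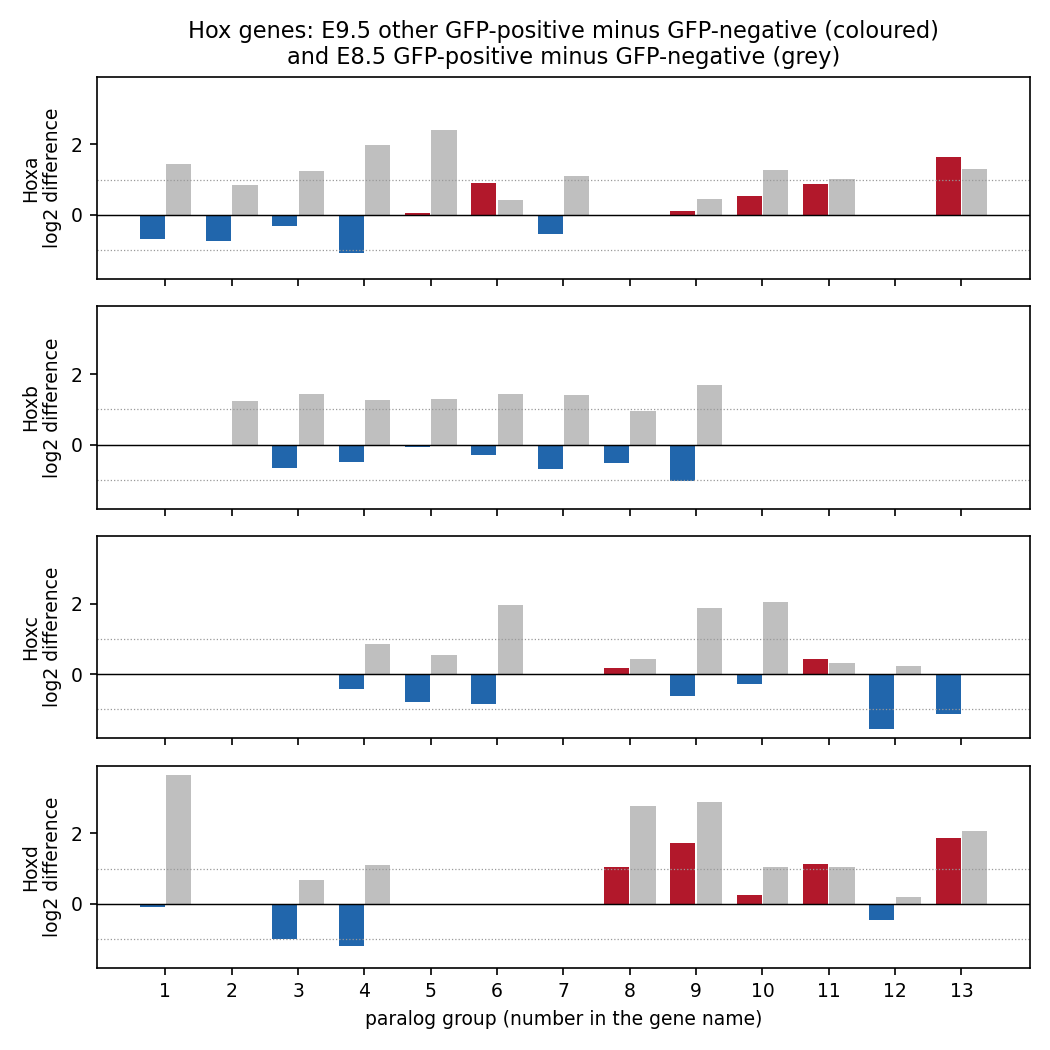
Log2 difference of each measured Hox gene by cluster (panels) and paralog group (x axis), with E9.5 other GFP-positive minus GFP-negative in red or blue and E8.5 GFP-positive minus GFP-negative in grey, 1 array per population. Hoxd13 and Hoxa13 reach 1.85 and 1.63 at E9.5, and the grey bars are all above 0.

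The E8.5 arrays gave a comparison of GFP-positive with GFP-negative cells that shares no array with that of E9.5 and lies within 1 slide, although its cells came from whole embryos and its GFP-positive cells were not gated. Among the 20099 genes measured at E8.5, 7.03% stood at least 2-fold higher in GFP-positive cells and 6.08% lower. Of the 151 genes that were 4-fold higher at E9.5 and measured at E8.5, 66 were at least 2-fold higher there, 9 lower and 76 within 2-fold. These 66 are 43.7% of the former and 4.67% of the 1413 genes higher at E8.5. Of the 242 lower genes, 110 were at least 2-fold lower at E8.5, 14 higher and 118 within 2-fold. The 110 are 45.5% of the former and 9.0% of the 1222 lower at E8.5.

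Some mesoderm, red cell and neural genes stood on the same side at E8.5. Osr1 was at least 16.9-fold higher at E8.5, Alx1, a homeobox factor of mesenchyme, at least 15.3-fold, Prrx1 9.31-fold, Fgf10 8.05-fold, Gata6 7.30-fold and Hand2 6.81-fold. Globins were lower there as well, Hba-x by 1022-fold and Hbb-y by 840.2-fold, and 18 of 20 red cell genes were lower. Sox2 was 13.6-fold and Sox3 12.1-fold lower at E8.5, yet the neural tube list as a whole had 5 of 18 lower at that stage with a median of -0.26. The paraxial list had 4 of 22 lower and 3 higher at E8.5, with a median of 0.01. Limb genes had 13 of 23 higher and 0 lower at E8.5, with a median of 1.04, and splanchnic genes 13 of 19 higher and 0 lower, with a median of 1.67. Tbx4 differed by 1.44 on the log2 scale at E8.5, with levels of 3.23 and 1.78 on the 2 arrays, and Lhx2 by 0.86, while Tbx15 was not well above background in GFP-negative cells. Hox medians were above 0 in all 4 number classes at E8.5, 1.26, 1.25, 1.68 and 1.01, in place of the division seen at E9.5. Whether any of these stage differences exceeds the spread between embryos was not tested.

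**Figure D5:**
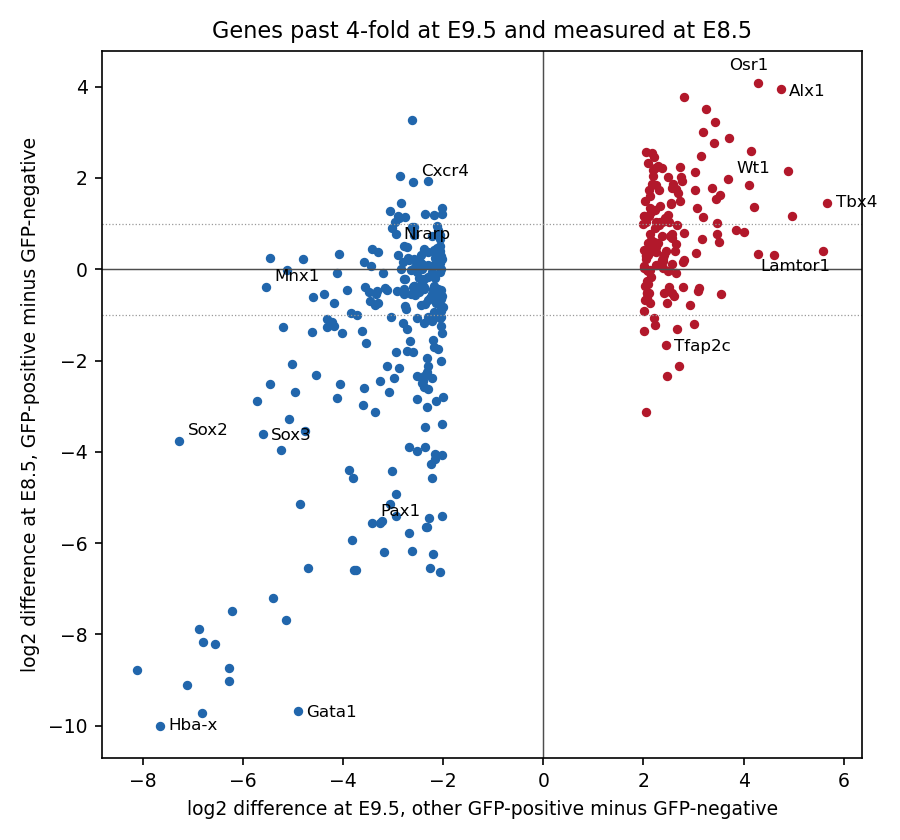
Log2 difference at E9.5, other GFP-positive minus GFP-negative (x axis), against that at E8.5, GFP-positive minus GFP-negative (y axis), for the 151 higher (red) and 242 lower (blue) genes past 4-fold at E9.5 and measured at E8.5, 1 array per population. Dotted lines mark 2-fold at E8.5, and the globins and Gata1 stand at the lower left, with Hba-x at -7.66 and -9.997.

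Other named genes on the higher side were of mixed kinds. The vesicular monoamine transporter Slc18a1 was at least 31.1-fold higher, the collectin Colec10 at least 24.4-fold, Capn6 18.6-fold, the junctional adhesion molecule Jaml at least 16-fold, Slitrk6 11.7-fold and the thyroid hormone binding protein Crym 11.6-fold, beside U90926 (at least 11.6-fold), Gm3705 (17.7-fold) and LOC100046739 (at least 24.6-fold). Lamtor1, a subunit of a lysosomal signalling complex, was 48.2-fold higher, but here the GFP-negative array stood apart. Its level there was -1.43, against 3.81 to 4.29 on the other 6 arrays, and it has a single probe. On the lower side Trib3, a stress-induced pseudokinase, was 43.8-fold lower.

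Noncoding loci were covered by 13825 measured lincRNA probes. At 4-fold, 79 of them (0.571%) stood higher and 119 (0.861%) lower. Around C130021I20Rik on chromosome 2, which was 12.7-fold higher with a probe from 33501600 to 33501659 (mm9), 4 of 6 measured lincRNA probes were at least 4-fold higher, by up to 4.48 on the log2 scale. The nearby limb gene Lmx1b differed by 0.12 by its brighter probe and by 0.75 by the other. Pantr1 on chromosome 1, with a probe from 42705111 to 42705170, stood at -3.04 against 2.68, 52.7-fold lower. Across its neighbourhood 19 of 26 measured lincRNA probes were at least 4-fold lower, with differences down to -6.03 on the log2 scale. Many of these probes overlap, and a lincRNA probe has the same coordinates as the Pantr1 probe. Some probes around C130021I20Rik overlap too, so both counts are of probes and not of separate loci. The probe for Pou3f3, the neural gene beside Pantr1, was not well above background on either array. Gm2818 on chromosome 8, at least 17.2-fold higher, has probes beside that of Hand2, and its second probe was 2.58 higher on the log2 scale.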

How the data were processed

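Total RNA of each sorted population (10 ng, amplified, per the labels' protocols) was hybridised to 1 single-colour Agilent mouse array. The deposited intensity of each spot is Agilent Feature Extraction's processed signal, background-subtracted and detrended on the linear scale per the file headers. The software version was 10.7.3.1 per the submitters' processing notes. The deposited value table held the same intensity, with all 415135 values equal to the processed signal within a relative tolerance of 1e-06.

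Control spots and spots flagged as outliers were left out. Levels were log2 intensity minus that of the array's 75th percentile, spots of a probe were averaged, and the probe of a gene that was brightest on average across the 7 arrays stood for that gene. Of 55681 probes, 26419 were named through RefSeq transcript accessions, 8939 kept the array's own name, and 20323, among them lincRNA probes, carried none. The bound for a side not well above background was its own value or, where larger, the lowest level called well above background on that array, -4.62 and -4.43 for other GFP-positive and GFP-negative cells. Differences counted from 4-fold, and from 2-fold for members of 34 gene lists of 531 symbols. Named genes were the 20 with the largest difference on each side whose other probes did not lie more than 1 log2 unit the other way. Among genes past 4-fold 97 had several probes, and 8 of these disagreed. Members and lists were chosen with earlier results of these data known. Alternatives were background correction (normexp with an offset of 50, limma 3.58.1 under R 4.3.3), scaling, filter, probe choice, outlier spots and the threshold. The steps were tested on simulated data. Other work used Python 3.11.15, numpy 2.4.6 and pandas 2.3.3. Some genes are not reported here. The number of arrays limits the precision.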

Additional observations from a re-analysis of the deposited data

Results flagged for a closer look

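Several genes lay past 2-fold on opposite sides at E9.5 and E8.5 and past 4-fold at 1 of these stages, and whether the stages differ was not tested, since each value comes from 1 array a side. Mixl1, a homeobox factor of early mesoderm and endoderm, differed by -2.31 at E9.5 and by 1.93 at E8.5, both bounds. The Notch feedback gene Nrarp differed by -2.97 and 1.03. The muscle genes Myl4 and Tnnt2 differed by -1.90 and -1.19 at E9.5 but by 2.41 and 2.52 at E8.5, where whole embryos were sorted. Tfap2c, a factor of surface ectoderm and germ cells, went the other way, with 2.45 at E9.5 and -1.66 at E8.5.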

How the results depend on the processing

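The count of genes at least 4-fold higher, 189 as reported, was 34 with normexp, 106 among genes well above background on both arrays, 1460 without filter or bound and 2033 at 2-fold, and the count lower, 300, was 96 with normexp, 583 after quantile normalization and 1227 at 2-fold. The higher side was the larger one at 2-fold and without filter or bound. The median over all genes was 0.13 as reported, -0.08 without scaling and 0.002 after quantile normalization. Genes on the same side at E8.5 numbered 17 of 32 higher and 44 of 91 lower with normexp, and 40 of 76 and 63 of 152 among genes well above background on both arrays. Of the named genes and list members, Hhip (-0.88 in place of 1.62) and Ttn (-0.53 in place of 1.30) changed sign when all probes of a gene were averaged. Limb, splanchnic, neural tube, paraxial and red cell medians kept their sign under every alternative, with limb genes between 1.20 and 1.81 and neural tube genes between -2.66 and -1.32. With normexp the splanchnic median was 0.67 in place of 1.58, with 9 in place of 13 genes higher, and the red cell median -1.74 in place of -2.94. White blood cell genes lower numbered 2 to 5. No paired analysis was possible because each population has 1 array, which also leaves no replicate to leave out. Signal over background limits 158 of the 489 genes past 4-fold, whose folds are bounds.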
